A study of Mus musculus with 7 samples.

Results

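The genes described here are 10 genes known from the lining of the intestine and other mucosal surfaces: Dmbt1, 2210407C18Rik, Gcnt3, Anxa13, Vil1, Lgals4, Cdx1, Cdx2, Reg3g and Muc1. They were chosen by name out of 18193 measured genes after the iHepSC and MEF arrays had been seen, and all 13 probe sets annotated to them were read. Their values in iHepSCs against MEF are therefore given as a description without a test.

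RNA was hybridised to Affymetrix mouse arrays from 3 kinds of cells. All cells are labelled C57BL/6, which the study's methods give as C57BL/6J for MEF and hepatocytes alike. Mouse embryonic fibroblasts (MEF, 4 arrays) were grown in fibroblast medium. Induced hepatic stem cells (iHepSCs, 2 arrays) were MEF infected with lentivirus carrying Oct4 and Hnf4α, picked as colonies and expanded in HEP medium, a hepatocyte medium with nicotinamide, dexamethasone, HGF and EGF, and 1 array each was made at passage 3 (P3) and passage 20 (P20). Primary hepatocytes (pHep, 1 array) were isolated by collagenase perfusion from 6-week-old mice. The labels put them in HEP medium, whereas the methods describe a short plating in Williams' medium E before RNA was taken. The study chose a single clone, iHepSC-C3, for its detailed analysis, so that both iHepSC arrays are likely of 1 clone, although the labels name none. Nothing states that arrays of a group came from separate cultures. The factors, the clonal picking and the change of medium all separate iHepSCs from MEF and cannot be told apart.

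All values are log2 expression levels from Robust Multiarray Analysis (RMA), so that a difference of 1 is a 2-fold difference. The array medians lay between 6.28 and 6.33 and the lowest values on the arrays between 3.01 and 3.19. MEF replicates 2 to 4 correlated with each other at 0.997, and MEF replicate 1 with them at 0.960 to 0.961. Hnf4a rose by 4.52 from MEF to iHepSC (limma, adjusted p = 1.66e-06), and the probe set of Pou5f1, the gene of Oct4, differed by 0.06 (adjusted p = 0.768). All 12 fibroblast markers fell in iHepSCs, and the 12 macrophage markers averaged between 6.60 and 7.70 on the MEF arrays, 5.83 to 5.87 on the iHepSC arrays and 10.13 on the pHep array.

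The intestinal lining is a single layer of epithelium whose absorptive cells carry a brush border of microvilli, each held by a core of actin filaments, and whose goblet cells secrete a coat of mucin. Its identity in the embryo and the adult depends on the homeobox factors Cdx1 and Cdx2, which act together with Hnf4 and Gata factors on many of the genes of the brush border. Hnf4α is shared by the hepatocyte, the intestinal epithelium and the visceral endoderm, the extraembryonic epithelium that absorbs nutrients for the early embryo.

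The promoters of 6 of the 10 genes (2210407C18Rik, Vil1, Lgals4, Cdx2, Reg3g and Muc1) were read from RefSeq on GRCm38.p6, and the letters of 4 motifs were searched on both strands from 250 bases before to 50 after the annotated start. Those of Cdx1, Dmbt1, Gcnt3 and Anxa13 were not read, and the counts below do not cover them. The motifs were TTTATNG for Cdx factors, CAAAGNNCA for Hnf4, ATGCNAAT for the octamer that Oct4 reads and AGATAA for Gata factors. They occurred in 10.9%, 6.36%, 3.15% and 11.2% of 32851 mouse promoters of the same length. Matches lay in 3 of the 6 promoters and are shown because they hold the letters of the factor given to the cells or of the Cdx factors measured below. The 250 bases before the start are printed on the strand of the gene with the match in capitals, for 2210407C18Rik at chr11:58613493-58613742 (minus strand), Cdx2 at chr5:147307250-147307499 (minus strand) and Reg3g at chr6:78468875-78469124 (minus strand).
2210407C18Rik: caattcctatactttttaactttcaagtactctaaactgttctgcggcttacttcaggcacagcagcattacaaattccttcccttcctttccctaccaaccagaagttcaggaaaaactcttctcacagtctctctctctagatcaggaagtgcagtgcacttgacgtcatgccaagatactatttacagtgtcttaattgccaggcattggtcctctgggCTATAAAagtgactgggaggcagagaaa
Cdx2: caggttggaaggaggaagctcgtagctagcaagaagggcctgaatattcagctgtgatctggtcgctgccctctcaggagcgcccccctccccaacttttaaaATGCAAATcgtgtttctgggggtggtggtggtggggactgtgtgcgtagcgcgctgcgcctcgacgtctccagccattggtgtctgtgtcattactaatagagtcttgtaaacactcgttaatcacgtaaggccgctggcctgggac
Reg3g: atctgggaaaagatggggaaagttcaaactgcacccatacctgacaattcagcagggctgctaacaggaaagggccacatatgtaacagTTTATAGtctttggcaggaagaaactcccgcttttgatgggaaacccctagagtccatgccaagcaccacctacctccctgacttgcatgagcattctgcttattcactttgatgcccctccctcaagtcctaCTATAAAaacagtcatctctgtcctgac
Counted back from -1 at the base before the start, Cdx2 held the octamer letters ATGCAAAT from position -147. 2210407C18Rik and Reg3g held CTATAAA, the reverse complement of the Cdx letters, from position -28, which is also where a TATA box lies in promoters that have one. Reg3g held a further Cdx match, TTTATAG, from position -161. No Hnf4 or Gata letters were in the 6 windows, and Vil1, Lgals4 and Muc1 held none of the 4 motifs. These matches are letters in a window and were not tested for binding.

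Of the 10 genes, 9 had both iHepSC arrays above all 4 MEF arrays, and 6 had an iHepSC mean at least 16-fold above the MEF mean. Over all genes 26.9% had both iHepSC arrays above every MEF array and 1.29% were at least 16-fold higher, and since this contrast was used to choose the 10 genes nothing is read from the comparison. The median difference of the 10 genes was 6.90 on the log2 scale, beside 0.01 over all genes. On the MEF arrays the 10 genes had mean percentiles between 8.09 and 52.7 among all 45101 probe sets, controls included. Of the 10 genes, 3 had a log2 value of at least 6 on a MEF array. RMA values carry no detection call, so that MEF levels of the dimmest genes are not shown to lie above background. Their folds over MEF may understate the difference, and their ranks follow the RMA values only.

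**Figure D1:**
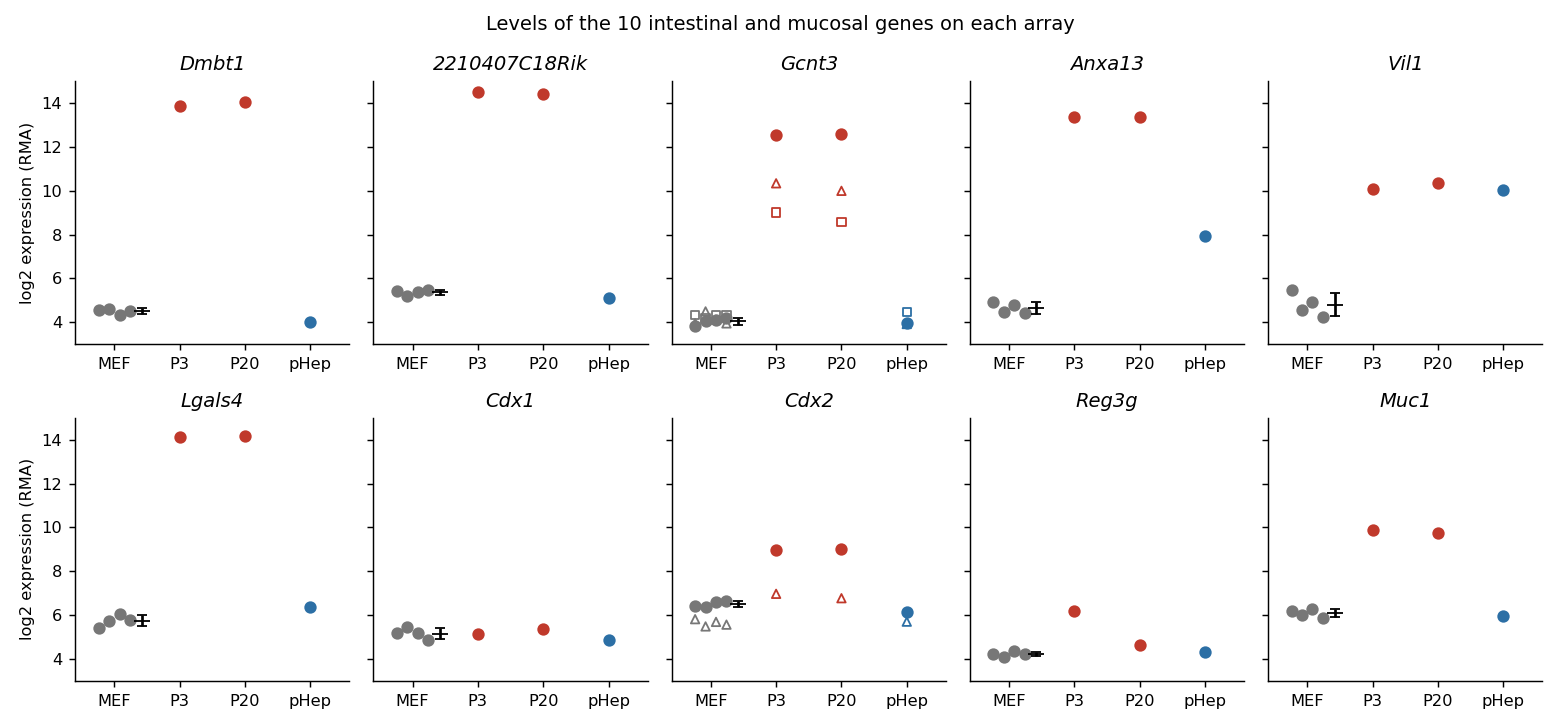
Log2 expression of each of the 10 genes on every array: 4 MEF arrays (grey, mean and SD as a black bar), iHepSCs at P3 and P20 (red) and pHep (blue). Filled circles are the probe set by which the gene was read and open symbols its other probe sets. The iHepSC points stand far above MEF for 6 genes, Vil1 in pHep lies within 0.19 of the iHepSC mean, and the groups of Cdx1 overlap.

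Dmbt1, 2210407C18Rik and Lgals4 were among the 13 genes with the largest differences between iHepSCs and MEF, as were Gcnt3 and Anxa13 described after them. Dmbt1 encodes a secreted scavenger-receptor protein that binds bacteria at mucosal surfaces. Its level was 4.54, 4.62, 4.31 and 4.54 on MEF arrays 1 to 4, 13.86 and 14.02 at P3 and P20, and 4.00 in pHep. The iHepSC mean was 695-fold above MEF (a difference of 9.44, SE 0.12), the third largest among all 18193 genes, and the hepatocyte array lay below every MEF array. 2210407C18Rik, a gene with no settled function, read 5.42, 5.18, 5.36 and 5.48 in MEF, 14.50 (P3) and 14.42 (P20) in iHepSCs and 5.12 in pHep. Its 550-fold difference (9.10, SE 0.12) ranked 4 among all genes, and its pHep array lay below the MEF arrays. Lgals4, a galectin of the gut epithelium that crosslinks glycoproteins for delivery to the apical membrane, read 5.42, 5.73, 6.05 and 5.79 in MEF, 14.10 at passage 3, 14.16 at passage 20 and 6.36 in hepatocytes. The iHepSC mean was 334-fold above MEF (8.38, SE 0.18) and ranked 13, while pHep stood only slightly above the highest MEF array.

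Gcnt3 and Muc1 belong to mucin biology. Gcnt3 encodes a branching enzyme that builds core 2 and core 4 O-glycans on mucins. By its brightest probe set it read 3.82, 4.07, 4.10 and 4.20 in MEF, 12.54 and 12.57 at P3 and P20, and 3.98 in pHep, a 362-fold difference between iHepSCs and MEF (8.50, SE 0.13). Its other probe sets also separated the groups, with differences of 6.03 and 4.51, so that the direction was shared by all 3 while the size depended on the probe set. Muc1, a transmembrane mucin of the apical surface, read 6.21, 6.00, 6.26 and 5.87 in MEF, 9.88 (P3) and 9.73 (P20) in iHepSCs and 5.94 in pHep. The iHepSC arrays were 13.2-fold above MEF (3.72, SE 0.14), and the pHep value fell within the MEF range.

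Vil1 and Anxa13 belong to the cytoplasmic face of the brush border. Vil1 encodes villin, which bundles the actin filaments of microvilli. It read 5.46, 4.54, 4.94 and 4.26 in MEF, the widest spread of the 10 genes (SD 0.52), 10.09 at passage 3, 10.35 at passage 20 and 10.03 in hepatocytes. The iHepSC mean was 43.0-fold above MEF (5.43, SE 0.33) and 0.19 above pHep (SE 0.47), a difference smaller than its error. Anxa13, a membrane-binding annexin found in intestinal and kidney epithelium, read 4.94, 4.48, 4.79 and 4.40 in MEF, 13.36 and 13.38 at P3 and P20, and 7.94 in pHep. Its iHepSC mean was 420-fold above MEF (8.72, SE 0.18) and 43.1-fold above pHep, and pHep stood between the other groups without overlap.

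The homeobox factors differed from each other. Cdx2 read 6.40, 6.37, 6.58 and 6.64 in MEF, 8.97 (P3) and 9.02 (P20) in iHepSCs and 6.13 in pHep by its brighter probe set, a 5.64-fold difference between iHepSCs and MEF (2.50, SE 0.12). By its other probe set it read 5.81, 5.48, 5.69 and 5.57 in MEF, 6.97 at passage 3, 6.77 at passage 20 and 5.70 in hepatocytes, a difference of 1.23. Both probe sets put the iHepSC arrays above every other array. Cdx1 read 5.16, 5.44, 5.18 and 4.85 in MEF, 5.15 and 5.38 at P3 and P20, and 4.88 in pHep. Its groups overlapped, and the difference between iHepSCs and MEF was 0.11 (SE 0.18). Cdx4, the remaining member of the family, read between 3.35 and 3.94 in MEF, 3.91 at P3 and 3.53 at P20 and was not called (adjusted p = 0.619).

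Reg3g, which encodes a secreted lectin that kills Gram-positive bacteria, was the only one of the 10 genes with at least a 2-fold difference between the passages. It read 4.23, 4.11, 4.34 and 4.21 in MEF, 6.19 (P3) and 4.64 (P20) in iHepSCs and 4.33 in pHep, so that P3 was 2.93-fold above P20. Against MEF the 2 iHepSC arrays together were higher by 1.19 (SE 0.40), P3 alone by 1.97 and P20 alone by 0.42, so that the difference rested mainly on P3. The other 9 genes differed between P3 and P20 by at most 0.26. Over all genes 0.539% differed by at least 2-fold between the passages, 0.324% being lower at P20, and with 1 array per passage there is no test.

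Primary hepatocytes were compared with MEF by limma, adjusted over all genes. The pHep array was not used to choose the genes, although the MEF arrays were, and the single pHep array is assumed to vary like the others. Of the 10 genes, 2 rose, 0 fell and 8 were not called, where 14.8% of all genes were higher and 15.5% lower. Vil1 was 37.6-fold above MEF (5.23, SE 0.43, adjusted p = 0.000389) and Anxa13 9.76-fold above MEF (3.29, SE 0.23, adjusted p = 0.000179). Lgals4 differed by 0.61 (adjusted p = 0.0949) and Dmbt1 by -0.50 (adjusted p = 0.0555), and neither passed. The median of the 10 genes was -0.11, beside -0.13 over all genes. Without MEF replicate 1 the counts were 3 higher, with Lgals4 added (0.50, adjusted p = 0.0196), and 2 lower, Dmbt1 (-0.49, adjusted p = 0.0227) and Cdx2 (-0.40, adjusted p = 0.0322). Without MEF replicate 3 Dmbt1 alone was lower (-0.57, adjusted p = 0.048). Macrophage markers were high on the pHep array, where 9 of 12 rose against MEF with Cd163 up by 7.29 and Vsig4 by 6.26, and their part in these values was not tested.

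Against pHep, as a description, both iHepSC arrays were higher for all 10 genes, where 58.7% of all genes had this order. The iHepSC mean was at least 2-fold higher for 8 of the 10 genes, beside 8.4% of all genes, and the exceptions were Vil1 and Cdx1. The 8 include Reg3g through P3, since it read 6.19 at P3, 4.64 at P20 and 4.33 in pHep. The 10 genes had a median difference of 4.65 between iHepSCs and pHep, beside 0.15 over all genes. Since the iHepSC arrays were used to choose the 10 genes, nothing is read from these comparisons with all genes.

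**Figure D2:**
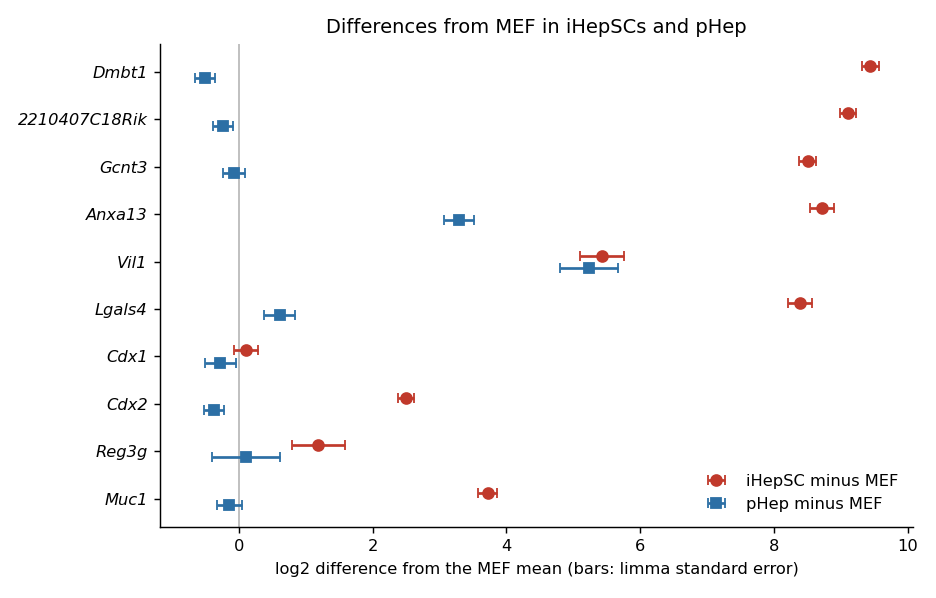
Log2 differences of iHepSCs (red circles) and pHep (blue squares) from the mean of the 4 MEF arrays for the 10 genes, with standard errors from limma. Only Vil1 and Anxa13 lie clearly to the right in pHep, at 5.23 and 3.29, while 6 genes exceed 5 in iHepSCs.

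Genes with the most similar course over the 7 arrays were found by the root mean square (RMS) difference of log2 values after each gene was centred on its own mean. Dmbt1 and 2210407C18Rik were closest to Trap1a, with RMS differences of 0.16 and 0.29. Trap1a read 4.13 on average in MEF, 13.84 in iHepSCs and 3.87 in pHep. Gcnt3 and Lgals4 were closest to Cldn18, a tight-junction claudin of stomach and lung, at 0.22 and 0.21. Cym, the gene of the stomach protease chymosin, was among the 3 nearest genes of all 4. Vil1 was closest to Agmo (0.16), which was likewise high in pHep, followed by Pcbd1 and Abcc3. Anxa13 had no partner closer than Ms4a4b (0.59). Muc1 was closest to Smim6 (0.11) and then to Alpi, the intestinal alkaline phosphatase (0.14), and Cdx2 to Lrrc26 (0.10). Reg3g was closest to Btn1a1 (0.08), and Cdx1 to Fam162b (0.07), which like Cdx1 hardly varied. With 3 kinds of cells these distances mainly group genes by which cells they are high in.

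The 3 nearest measured genes on each side of each gene were also read in iHepSCs against MEF. Of these 60 neighbours, 11 rose, 9 fell and 40 were not called, near the 18.2% of all genes that were higher and 13.4% that were lower, and their median difference was -0.13. The largest rise was that of Lypd8, the gene of a secreted protein of the colon that keeps flagellated bacteria from the epithelium, the third measured gene before 2210407C18Rik. Lypd8 read 5.22, 5.22, 4.98 and 4.92 in MEF, 12.07 at passage 3, 12.47 at passage 20 and 5.05 in hepatocytes, and rose by 7.19 (SE 0.16, limma, adjusted p = 1.64e-06). The genes between them, 1810065E05Rik and Lypd9, differed by 0.01 and -0.16 and were not called. Next to Cdx2, the homeobox genes Pdx1 (-0.34, adjusted p = 0.172) and Gsx1 (-0.14, adjusted p = 0.397) were not called. Next to Reg3g, the lectin genes Reg3a (-0.25, adjusted p = 0.283), Reg2 (0.07, adjusted p = 0.674) and Reg1 (-0.16, adjusted p = 0.337) were not called.

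**Figure D3:**
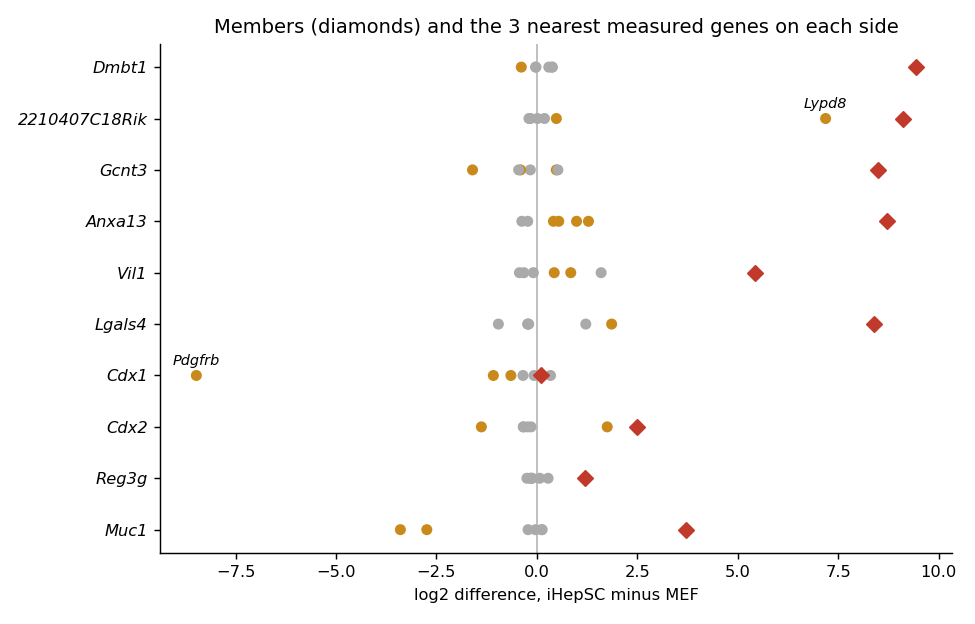
Log2 differences between iHepSCs and MEF of the 10 genes (red diamonds) and of the 3 nearest measured genes on each side (circles, orange where the adjusted p was under 0.05 and grey otherwise). Lypd8 at 7.19 and Pdgfrb at -8.48 lie farthest from 0 among the neighbours, and the next are Fam189b at -3.40 and Thbs3 at -2.74, both beside Muc1.

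A wider set of 167 other intestinal and mucosal genes was tested in the same fit. The lists were drawn up with earlier results of these data known, so that the shares below are no independent evidence of a rise. In iHepSCs against MEF 70 of them rose, 12 fell and 85 were not called, so that 41.9% were higher, beside 18.2% of all genes, with a median difference of 0.28. In pHep against MEF 29 rose and 24 fell, so that 17.4% were higher beside 14.8% of all genes, with a median of -0.17. In iHepSCs against pHep 58 were higher and 15 lower, beside 9.26% and 7.89% of all genes. These comparisons share arrays. Without MEF replicate 1 the counts of lower genes became 22, 48 and 24. Leaving out that array also moved the falls in iHepSCs in several lists below. They went from 0 to 1 among brush border genes, transcription factors and villin and gelsolin relatives. Among O-glycan enzymes and among enteroendocrine genes they went from 1 to 2, and among crypt genes from 4 to 6. The rises among crypt genes went from 1 to 2.

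**Figure D4:**
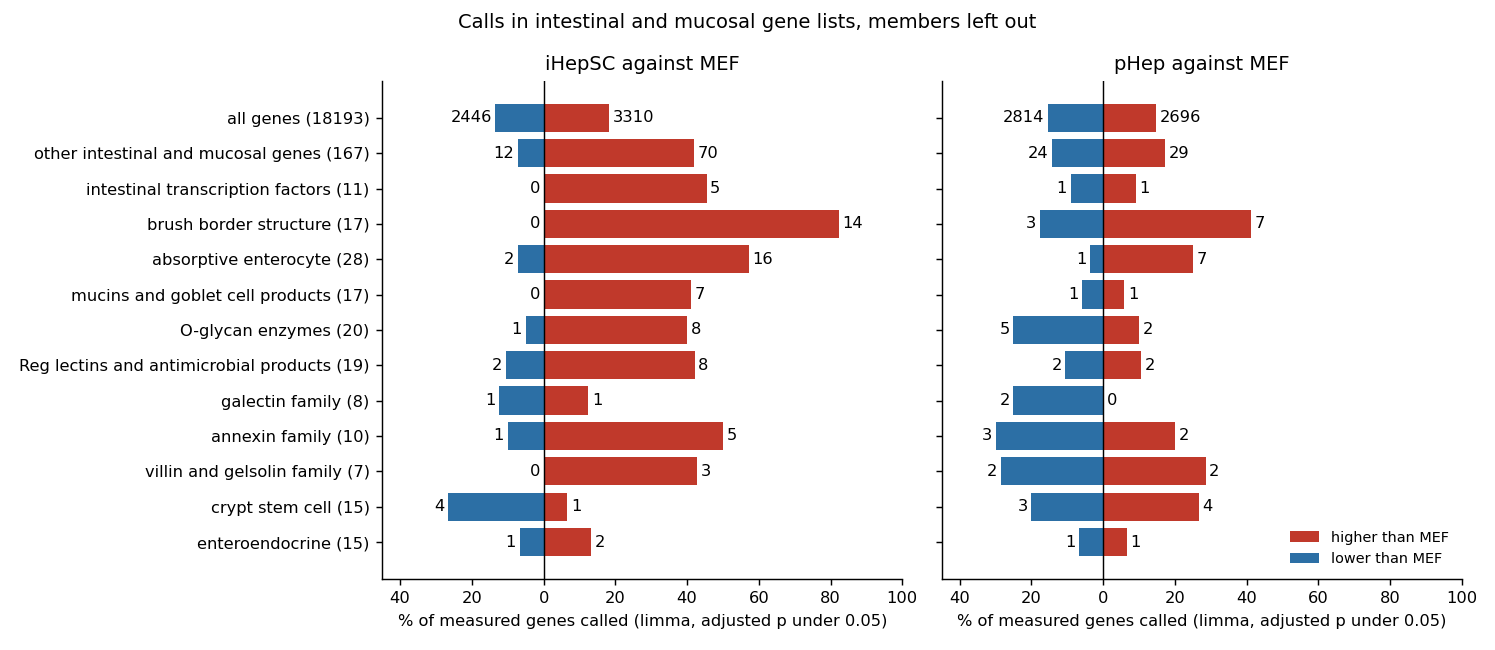
Share of the measured genes of each list, in percent, that were called higher (red, to the right) or lower (blue, to the left) than MEF in iHepSCs (left panel) and pHep (right panel), with the number of genes beside each bar. The brush border list has the longest bar in iHepSCs, with 14 of 17 genes higher, and 7 of 17 in pHep.

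Brush border genes rose most often, with 14 of 17 higher in iHepSCs, 0 lower and a median difference of 2.06. Tmigd1, an adhesion molecule of the microvillus membrane, lay between 4.24 and 4.43 in MEF, at 11.29 and 11.14 in iHepSCs and at 4.40 in pHep (a rise of 6.89, SE 0.10, adjusted p = 6.39e-07). Baiap2l1, which links membrane to actin, rose by 5.37 (SE 0.31, adjusted p = 6.73e-05), and Pls1, the gene of the microvillar actin bundler fimbrin, by 4.46 (SE 0.15, adjusted p = 6.9e-06). The microvillar cadherin Cdhr2 (3.34) and the brush border motor Myo1a (3.21) rose as well, and Pdzk1, Ush1c and Espn were not called. In pHep 7 of the 17 rose, led by Slc9a3r1 (3.82, adjusted p = 1.16e-05) and Anks4b (3.73, adjusted p = 0.000211), and 3 fell, among them Eps8 (-3.94, adjusted p = 8.28e-05) and Espn (-0.82, adjusted p = 0.0405). Without MEF replicate 3 the count of falls in pHep was 1.

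Among 28 genes of absorptive enterocytes, 16 rose and 2 fell in iHepSCs. Apoa4, an apolipoprotein of chylomicrons, lay between 5.20 and 6.05 in MEF, at 12.37 and 12.95 in iHepSCs and at 8.93 in pHep (a rise of 7.00, SE 0.28, adjusted p = 1.25e-05). Prap1 rose by 6.08 (SE 0.09, adjusted p = 6.59e-07) and the intestinal fatty acid binding protein gene Fabp2 by 5.34 (SE 0.17, adjusted p = 5.58e-06). The retinol binder Rbp2 rose by 4.63, Alpi by 3.49 and the gut cadherin Cdh17 by 3.35. The falls were those of Anpep (-0.80, adjusted p = 0.00488) and Amn (-0.65, adjusted p = 0.00632), each lost when arrays were scaled to Gapdh, and with P3 or P20 left out 1 fall remained called. Genes of digestion and uptake, picked from the list with their values in view, were divided. The protease Mep1b (3.00), the glucosidase Mgam (1.38), the uptake receptor Cubn (4.50) and the sterol transporter Npc1l1 (0.81) rose. Lactase (Lct, -0.04), trehalase (Treh, -0.15), the glucose transporter Slc5a1 (0.17), the peptide transporter Slc15a1 (0.05) and the proteases Dpp4 (0.05) and Mep1a (0.12) were not called. In pHep 7 rose, led by Enpep (5.92, adjusted p = 3.33e-05) and Apoa4 (3.27, adjusted p = 0.00128), and Cubn alone fell (-1.99, adjusted p = 0.00171). Without MEF replicate 1 the count of falls in pHep was 3.

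**Figure D5:**
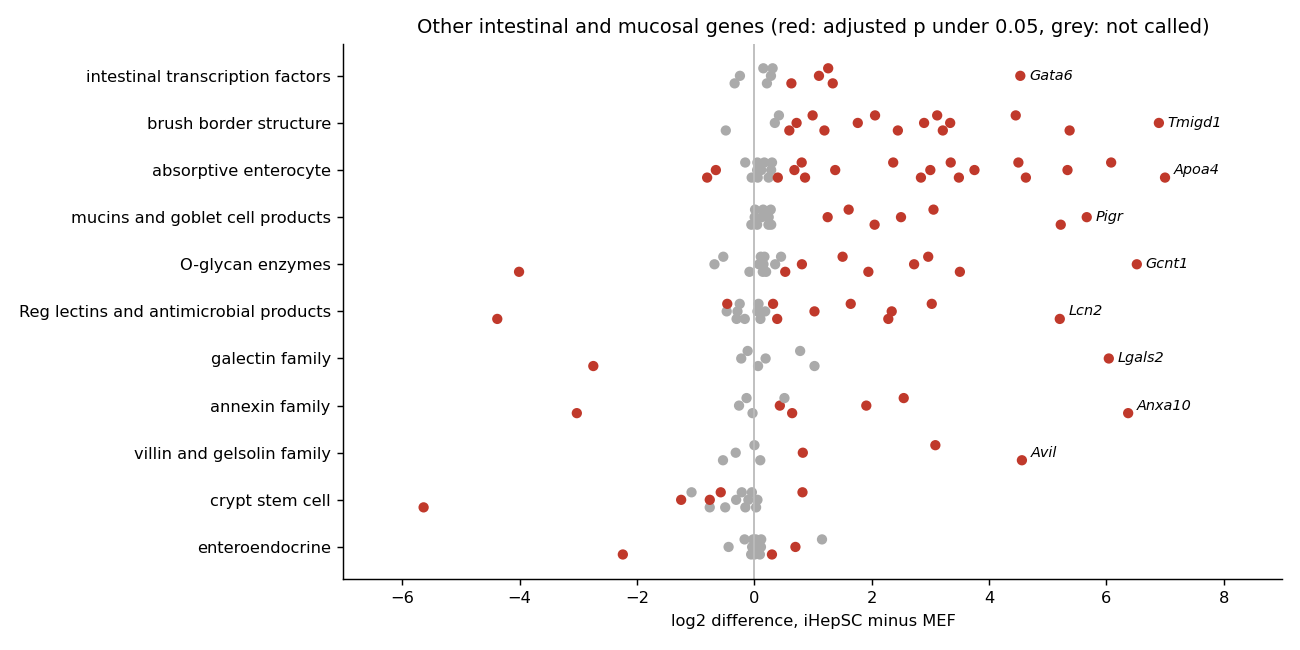
Log2 difference between iHepSCs and MEF of each gene in the 11 lists (red where the adjusted p was under 0.05, grey otherwise), with the gene of the largest rise named where it exceeded 2. Most lists hold both a cluster of genes near 0 and at least 1 gene that rose by over 4, while the crypt stem cell and enteroendocrine lists have none above 2.

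Of 17 genes of mucins and goblet cell products, 7 rose and 0 fell. Pigr, the receptor that carries antibodies across mucosal epithelium, rose by 5.67 (SE 0.23, adjusted p = 1.55e-05) and the goblet cell product Clca1 by 5.22 (SE 0.19, adjusted p = 9.76e-06). The trefoil peptide gene Tff3 lay at 8.64 at P3 and 10.94 at P20 and rose by 3.05 (SE 0.62, adjusted p = 0.012). The membrane mucins Muc3 (2.50) and Muc13 (2.05) and the goblet cell genes Zg16 (1.61) and Spink4 (1.25) also rose. The secreted mucins Muc2 (0.24, adjusted p = 0.341) and Muc5ac (-0.05, adjusted p = 0.81), and Agr2 (0.28, adjusted p = 0.201), which folds mucin, were not called. In pHep Tff3 rose (2.83, adjusted p = 0.0418) and Fcgbp fell (-0.52, adjusted p = 0.0304). Without MEF replicate 1 the count of falls in pHep was 5, and it was 0 without MEF replicate 3, P3 or P20. The fall of Fcgbp was lost without MEF replicate 3 or 4, P3 or P20, and the rise of Tff3 without MEF replicate 2, 3 or 4. Of 20 O-glycan enzymes, which include the relatives of Gcnt3, 8 rose and 1 fell in iHepSCs. Gcnt1, the other widely used core 2 branching enzyme, rose by 6.52 (SE 0.12, adjusted p = 1.01e-06), Galnt12 by 3.50 (SE 0.15, adjusted p = 1.66e-05) and B3gnt3 by 2.96 (SE 0.15, adjusted p = 3.52e-05), and B3gnt5 fell by 4.01 (SE 0.48, adjusted p = 0.00145). In pHep 2 rose and 5 fell, among the latter B3gnt5 (-4.31) and Gcnt1 (-1.13), and without MEF replicate 2, 3 or 4 the count of falls was 3, and without MEF replicate 3 or 4 that of rises was 1.

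The families of the other genes moved in part. Among the 19 other Reg lectins and antimicrobial products 8 rose and 2 fell in iHepSCs, and without P3 or P20 the rises numbered 5 and 4. Lcn2, which binds bacterial siderophores, rose by 5.21 (SE 0.13, adjusted p = 2.12e-06), Slpi by 3.02 (adjusted p = 0.00327) and Wfdc2 by 2.34 (adjusted p = 0.0199), and the last was lost without P3 or P20. Lyz1 fell by 4.38 (adjusted p = 0.00322), but its signal cannot be separated with certainty from that of its near copy Lyz2, which fell by 3.45, and with shared-sequence probe sets left out Lyz1 differed by -0.26 (adjusted p = 0.385). The falls in iHepSCs numbered 5 without MEF replicate 1, and without any 1 of the other MEF and iHepSC arrays they numbered 1. Itln1 fell by 0.46 (adjusted p = 0.0283), a direction that turned when arrays were scaled to Gapdh. Reg4 rose by 0.39 (adjusted p = 0.0386), from between 5.04 and 5.29 in MEF to 5.61 on both iHepSC arrays. Reg3b (0.19, adjusted p = 0.291) and Reg3d (0.05, adjusted p = 0.855) were not called. In pHep Lcn2 rose by 9.83 (adjusted p = 3.82e-06) and Wfdc2 by 4.79 (adjusted p = 0.00403), and 2 genes fell, Camp (-0.85) and Itln1 (-0.64), both lost without MEF replicate 2 or 4, P3 or P20. The falls in pHep numbered 4 without MEF replicate 1 and 1 without MEF replicate 3.

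Of the other 8 galectins, Lgals2 rose by 6.04 (SE 0.20, adjusted p = 6.71e-06) and Lgals1 fell by 2.74 (SE 0.21, adjusted p = 0.000199), and 6 were not called. Without MEF replicate 1 the rises numbered 3. Of the other 10 annexins 5 rose and 1 fell, with Anxa10 up by 6.37 (SE 0.27, adjusted p = 1.78e-05), Anxa4 by 2.55 (adjusted p = 8.64e-05) and Anxa8 by 1.91 (adjusted p = 0.0037), and Anxa6 down (-3.02, adjusted p = 0.00174), and without P3 or P20 the rises numbered 3. Of the other 7 villin and gelsolin relatives 3 rose, Avil (4.56, SE 0.20, adjusted p = 1.94e-05), Vill (3.09, adjusted p = 0.000159) and Svil (0.83, adjusted p = 0.00201). In pHep Lgals3 (-2.12), Anxa8 (-5.24), Anxa1 (-3.12), Gsn (-4.11) and Capg (-2.65) fell and Anxa4 (1.91), Vill (1.34) and Svil (1.05) rose.

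Of 11 other intestinal transcription factors, 5 rose and 0 fell in iHepSCs. Gata6 rose by 4.53 (SE 0.30, adjusted p = 0.000109) and was also higher in pHep (3.92, adjusted p = 0.000838). Klf4 rose by 1.34 (adjusted p = 0.000214) and fell in pHep (-1.01, adjusted p = 0.00272), Gata4 rose by 1.26 (adjusted p = 0.00121), and Klf5 (1.10) and the enterocyte factor Isx (0.63) rose as well. Hnf4g (0.22, adjusted p = 0.193) and the secretory cell factor Atoh1 (-0.24, adjusted p = 0.306) were not called. Crypt stem cell genes did not share the rise, with 1 of 15 higher and 4 lower. Lrig1 rose by 0.82 (adjusted p = 0.00269), Smoc2 fell by 5.63 (adjusted p = 0.0023), Sox9 by 1.25 (adjusted p = 0.0053) and Cd44 by 0.76 (adjusted p = 0.00503), and without P20 the falls numbered 2. With arrays centred on Gapdh the falls numbered 1, and Sox9 (-0.76, adjusted p = 0.0871) and Cd44 (-0.27, adjusted p = 0.372) were no longer called. Lgr5 (-0.50, adjusted p = 0.513), Olfm4 (0.03, adjusted p = 0.856) and Ascl2 (-0.15, adjusted p = 0.449), which mark the crypt base, were not called in the main fit. In pHep 4 of the 15 rose, among them Prom1 (4.67) and Sox9 (3.43). Another 3 fell, among them Smoc2 (-5.25, adjusted p = 0.0103) and Ephb3 (-1.66, adjusted p = 0.000855). Of 15 enteroendocrine genes Neurod1 (0.70, adjusted p = 0.0135) and Gip (0.30, adjusted p = 0.0494) rose and Cck fell by 2.24 (adjusted p = 5.78e-05), and the rises numbered 0 without P3 or P20 and 1 without MEF replicate 2, 3 or 4.

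Markers of some other epithelia also rose in iHepSCs, and those of others mostly did not. Of 12 stomach markers 7 rose in iHepSCs and 0 fell, with Cldn18 up by 8.11 (SE 0.13, adjusted p = 7.97e-07), the gastrokines Gkn1 by 7.84 and Gkn2 by 7.71 and the protease Ctse by 6.40. The acid pump genes Atp4a (0.49, adjusted p = 0.153) and Atp4b (-0.02, adjusted p = 0.93), pepsinogen C (Pgc, -0.14, adjusted p = 0.347) and Sox2 (-2.63, adjusted p = 0.0542) were not called. The list averaged between 6.18 and 6.47 on the MEF arrays, 9.19 and 9.23 on the iHepSC arrays and 5.94 on the pHep array. Of 13 visceral endoderm markers 9 rose and 2 fell. Apob was up by 8.86, Rhox5 by 7.77, Cubn by 4.50 and Sox17 by 3.54, while Lrp2 (-1.49, adjusted p = 0.0429) and Amn (-0.65) fell. Pla2g12b (0.24, adjusted p = 0.548) and Cited1 (0.53, adjusted p = 0.213) were not called. The list averaged 6.25 to 6.61 on the MEF arrays, 10.07 to 10.19 on the iHepSC arrays and 9.16 on the pHep array. Apoa4, Cubn and Amn stand in both the visceral endoderm and the absorptive enterocyte list, and Ttr in both the visceral endoderm and the hepatocyte list. Of 8 airway markers 3 rose, with the surfactant protein gene Sftpd up by 5.26, and 5 were not called. Of 9 cholangiocyte markers 3 rose and 1 fell, with Krt7 up by 6.15, Krt19 up by 5.16 and Sox9 down (-1.25). The other 5, among them Epcam (-0.15, adjusted p = 0.286), were not called. Epcam was read here by a shared-sequence probe set. The study reports Epcam RNA higher in iHepSCs than in fibroblasts by qPCR and Epcam protein in a part of the cells. Of 13 hepatocyte markers 5 rose, with Alb up by 8.47, while Tat (-0.04), Cyp3a11 (0.09) and Cyp7a1 (-0.12) were not called. None of 8 pancreatic acinar markers and none of 8 lymphocyte markers was called by limma, where 2 and 0 were higher at an unadjusted p under 0.05. The part of these cell types in the values of the 10 genes was not tested, and more cells of a type and more RNA per cell cannot be told apart in bulk samples.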

How the data were processed

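The authors hybridised total RNA to Affymetrix mouse arrays and deposited log2 values of 45101 probe sets made by RMA (background correction, quantile normalization, summary per probe set), which were used as given. The number of arrays limits the precision, since arrays hold no counts. Groups were taken from the sample labels. Of the probe sets, 64 controls, 932 with several gene symbols and 9160 with none were left out, and 18193 genes remained, the brightest probe set standing for a gene. No filter was applied. Tests used lmFit and eBayes of limma 3.58.1 (R 4.3.3) in 1 model over 7 arrays, with Benjamini-Hochberg adjustment over all genes and a threshold of 0.05. The model had 4 residual degrees of freedom, to which the pHep array adds none, and p-values measure only the spread between these arrays. The fit was tested on simulated data. The 10 genes, the gene lists and the tests were chosen with earlier results of these data known. From each intestinal list up to 3 genes with the largest called rise or fall in iHepSCs and up to 2 in pHep were named, and further genes were chosen after their values were seen. Alternatives were the probe set summary, dim-gene filter, scaling, variance prior, fold floor, the methods' t-test, the replicate block and each array left out. Listed genes without a probe set of a single symbol, among them Lgals6, Muc6 and Sis, were not analysed here.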

Additional observations from a re-analysis of the deposited data

Results flagged for a closer look

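On 1 probe set of Gcnt3 a single MEF array was set apart from the others, although all 4 lay close together (SD 0.07). On the dimmest of its 3 probe sets, MEF replicate 2 was the lowest at 4.18 while the others lay between 4.31 and 4.32, a gap that made up 0.899 of the range of the 4 arrays. About 1 in 20 groups is set apart by chance at this limit, and 13 probe sets were looked at. The iHepSC arrays read 9.01 and 8.57 on the same probe set.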

How the results depend on the processing

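The 2 rises in pHep, of Anxa13 and Vil1, were called under each alternative. Falls among the 10 genes in pHep numbered 1 with the mean of all probe sets and 0 to 2 with 1 array left out, and rises 2 to 3. Itln1 turned to 0.030 in iHepSCs when arrays were centred on the Gapdh control probe sets. The replicate numbers are shared by labels only and were not taken to pair the arrays (their deviations correlated at -0.22, over 1 comparison). With a replicate block, genes called higher and lower were 845 and 682 for iHepSC against MEF, 465 and 315 for pHep against MEF and 189 and 259 for iHepSC against pHep, and those of the 167 other intestinal genes were 37 and 6, 8 and 5, and 21 and 4. With MEF replicates 2 to 4 averaged the counts over all genes were 1517 and 1184, 1240 and 927, and 693 and 780, and the other intestinal genes lower in pHep were 12. Centred on Gapdh, 1053 genes were lower in iHepSC against MEF, 1525 higher and 1380 lower in pHep against MEF and 616 lower in iHepSC against pHep, with 6, 14 and 9 other intestinal genes lower. A 2-fold floor left 1965 higher and 1369 lower genes in iHepSC against MEF, 1496 lower in pHep against MEF and 1096 higher in iHepSC against pHep, with 7 other intestinal genes lower in iHepSC against MEF. With 1 array left out, higher and lower genes ranged from 1833 to 5638 and from 1299 to 4514 for iHepSC against MEF, from 2037 to 4917 and from 1843 to 5743 for pHep against MEF, and from 909 to 4628 and from 878 to 3144 for iHepSC against pHep, the highest without MEF replicate 1. Those of the other intestinal genes ranged from 56 to 82 and from 8 to 22, from 24 to 38 and from 17 to 48, and from 42 to 82 and from 13 to 24. The cause was not tested. Of the results for single other genes in iHepSC against MEF, 574 of 621 kept direction and call, and in pHep against MEF 479 of 557.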
